A study of Drosophila melanogaster with 6 samples.

Results

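Larval serum proteins and yolk proteins are the main storage proteins of the fly, and the 7 genes that encode them, Lsp1alpha, Lsp1beta, Lsp1gamma, Lsp2, Yp1, Yp2 and Yp3, were followed here in whole adult males with and without Estrogen-related receptor (ERR, labelled dERR). The genes were taken by name from a table of 13035 genes, and all 7 were measured. They were chosen by family with their mutant against control differences in these same libraries known, so those differences are given below as a description, with errors and without p-values.

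Larval serum proteins are hexamerins, large secreted proteins related to the copper-binding hemocyanins and prophenoloxidases. The larval fat body releases them into the blood in bulk late in feeding, takes them back up before metamorphosis, and uses them as a store of amino acids for building the adult. The 3 LSP1 subunits assemble into hexamers, and LSP2 is a separate hexamerin whose gene is also known to be active in the adult fat body. Yolk proteins are made by the fat body and the ovarian follicle cells of females and taken up by the oocyte. They belong to the lipase family in fold and sequence, and in males the male form of the transcription factor Doublesex holds their genes at low activity.

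All 6 libraries came from whole Drosophila melanogaster males collected on day 6 of adult life, and all carried the genotype yw, hsFLP;; dERR[conditional] / dERR2, a conditional ERR allele over a mutant allele with a heat-inducible FLP recombinase. The 3 dERR mutant libraries came from flies given a heat treatment of 1 h on day 5 and again on day 6 after the eggs were laid, which induces the recombinase, and the 3 control libraries came from flies that were not heated. Heat and loss of ERR therefore cannot be told apart. The labels do not say whether the libraries of a group came from separate cultures, so the spread between them may be technical. In bulk RNA from whole flies, fewer cells of a type and less RNA per cell cannot be told apart.

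The libraries held 13987814 to 16102936 reads assigned to genes, and the values are normalized counts, in which 1 read was worth 0.926 to 1.07. ERR itself ranged from 373 to 539 normalized counts in control and from 107 to 119 in mutant libraries, and it overlaps CG7979, which had 131 on average. The labelled sex was checked on 7 dosage compensation genes, of which the male-specific RNA roX1 had 8859 to 9786 normalized counts in control and 10454 to 11102 in mutant libraries. Of 18 listed egg coat genes, which mark ovarian follicle cells, 4 were measured, with a summed level of 99.1 to 105 in control and 104 to 136 in mutant libraries. Over all genes, 1851 (14.2%) passed an adjusted p of 0.05 in limma, 1234 lower (9.47%) and 617 higher (4.73%) in the mutant.

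Lsp2, the separate hexamerin, was the storage protein gene with the highest control level and the largest difference. Lsp2 (FBgn0002565; chromosome arm 3L, 12122492 to 12124796, dm3) had 1864, 1199 and 2118 normalized counts in control libraries 1 to 3, and 59.7, 34.8 and 17.9 in mutant libraries 1 to 3. The groups did not overlap, and the lowest control library lay 20.1-fold above the highest mutant library. The means were 1727 ± 474 and 37.5 ± 21.0 (SD, n = 3 each), so that 2.17% of the control level was left. On a log2 scale after adding 1 the difference was -5.61 ± 0.34 (SE). This was the lowest value among the 13035 genes. The authors' deposited table likewise gives Lsp2 its lowest maximum likelihood log2 fold change (-5.53), while the shrunken value in the same authors' deposited table is -2.58.

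The genes of the LSP1 subunits did not move together. Lsp1beta (FBgn0002563; 2L, 898643 to 901316, dm3) had 408, 214 and 389 normalized counts in controls 1 to 3 and 60.7, 32.8 and 16.9 in mutants 1 to 3. The groups did not overlap, and the log2 difference was -3.28 ± 0.38 (SE), with 10.9% of the control mean left. Lsp1alpha (FBgn0002562; X, 12384415 to 12386933, dm3) was close to the limit of detection, with 10, 3 and 17 reads in the controls and 0, 1 and 0 in the mutants. Its read rate was 30.2-fold higher in control than in mutant libraries, with a 95% counting interval of 5.02 to 1233 (exact binomial, counting error only). Its log2 difference of -2.88 ± 0.71 (SE) rests on so few reads that it depends on the 1 added before taking logs. It became -3.58 with 0.5 and -0.90 with 10 added in place of 1.

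Lsp1gamma (FBgn0002564; 3L, 66429 to 68995, dm3) had 20.3, 39.8 and 25.2 normalized counts in the controls and 27.4, 18.9 and 35.8 in the mutants. The groups overlapped, with means of 28.4 ± 10.2 and 27.4 ± 8.47 (SD, n = 3 each). The log2 difference was -0.04 ± 0.30 (SE), and the counting interval of the control to mutant rate ran from 0.773 to 1.44. No source used here says how reads that match more than 1 of these related genes were counted.

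**Figure D1:**
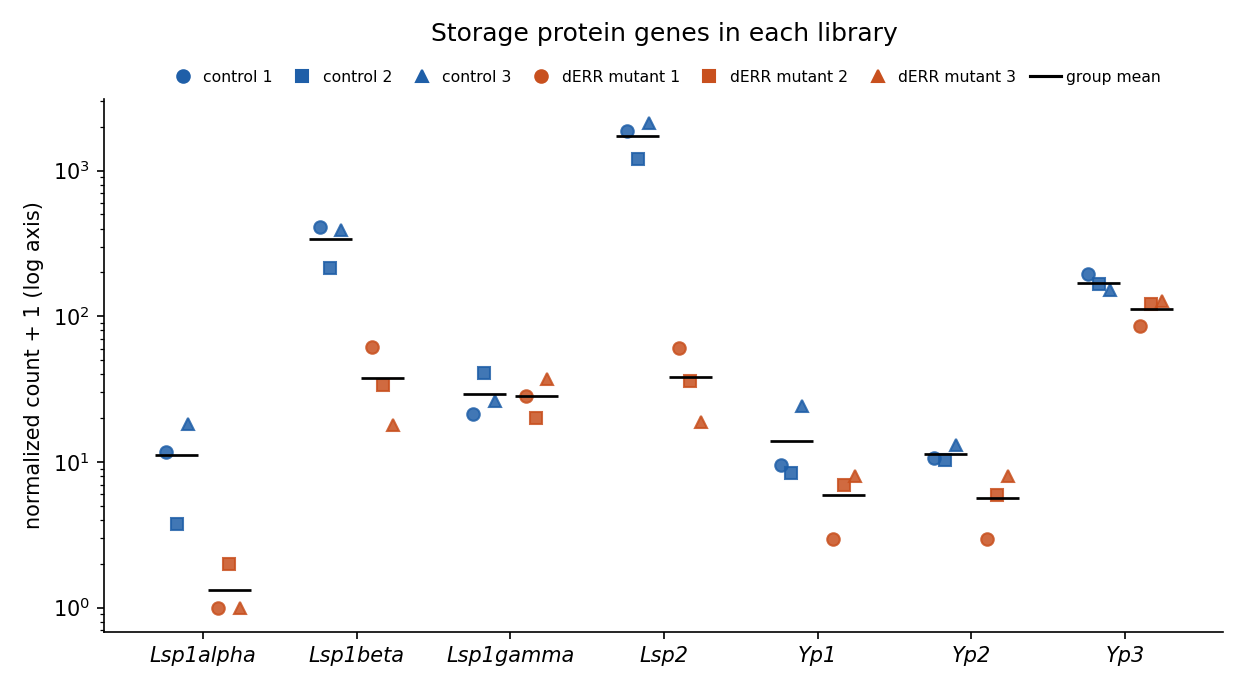
Normalized count plus 1 on a log axis for the 7 storage protein genes. Each point is a library, with control in blue, dERR mutant in orange and the marker shape giving the replicate number; black lines are group means. Lsp2 and Lsp1beta separate widely by group, Lsp1gamma overlaps, and the 3 yolk protein genes are lower in the mutant libraries by small margins.

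Among the yolk protein genes, Yp1 and Yp2 were low in these males. By log2 difference the yolk protein genes differed less between the groups than Lsp2 and Lsp1beta, and more than Lsp1gamma. Yp3 (FBgn0004047; X, 13653577 to 13655200, dm3), the most abundant of them, had 193, 165 and 150 normalized counts in the controls and 85.2, 121 and 126 in the mutants. The mutant values all lay under the control values, and the log2 difference was -0.62 ± 0.16 (SE), with 65.5% of the control mean left. Yp1 and Yp2 sit side by side on the X chromosome on opposite strands (9947884 to 9949531 and 9945048 to 9946669, dm3), with 1214 bases between them.

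Yp1 (FBgn0004045) had 8, 8 and 23 reads in the controls and 2, 6 and 7 in the mutants. Yp2 (FBgn0005391) had 9, 10 and 12 reads against 2, 5 and 7. For both genes the groups only just failed to overlap, at 7.41 against 6.97 normalized counts for Yp1 and 9.26 against 6.97 for Yp2. The log2 differences were -1.19 ± 0.52 for Yp1 and -1.11 ± 0.44 for Yp2 (SE). The counting interval of the control to mutant rate was 1.41 to 5.12 for Yp1 and 1.15 to 4.54 for Yp2. These intervals pool the reads of a group and leave out the spread between its libraries. In limma, which uses that spread, neither gene had an adjusted p under 0.05. With 10 in place of 1 added before taking logs the differences became -0.57 and -0.49.

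In all, 6 of the 7 storage protein genes had all mutant values under all control values, where 16.9% of all genes did, and 0 had all mutant values above all control values, where 15.7% of all genes did. Of the 7, 4 had an adjusted p under 0.05 in limma, all lower (Lsp1alpha, Lsp1beta, Lsp2 and Yp3), beside the 9.47% of all genes called lower. This count is a description and no test of the set, because the genes were chosen with these differences known. The median log2 difference was -1.19 over the 7 genes and 0.00 over all genes tested. Without control replicate 1 the number past the threshold was 2 (Lsp1beta and Lsp2), and Lsp1alpha or Yp3 was also lost without control replicate 2, control replicate 3 or mutant replicate 1. Lsp1gamma had a log2 difference of 0.04 when libraries were scaled to their totals and -0.20 when scaled to ribosomal protein genes. The other 6 genes had negative differences in each fit with a value for them.

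**Figure D2:**
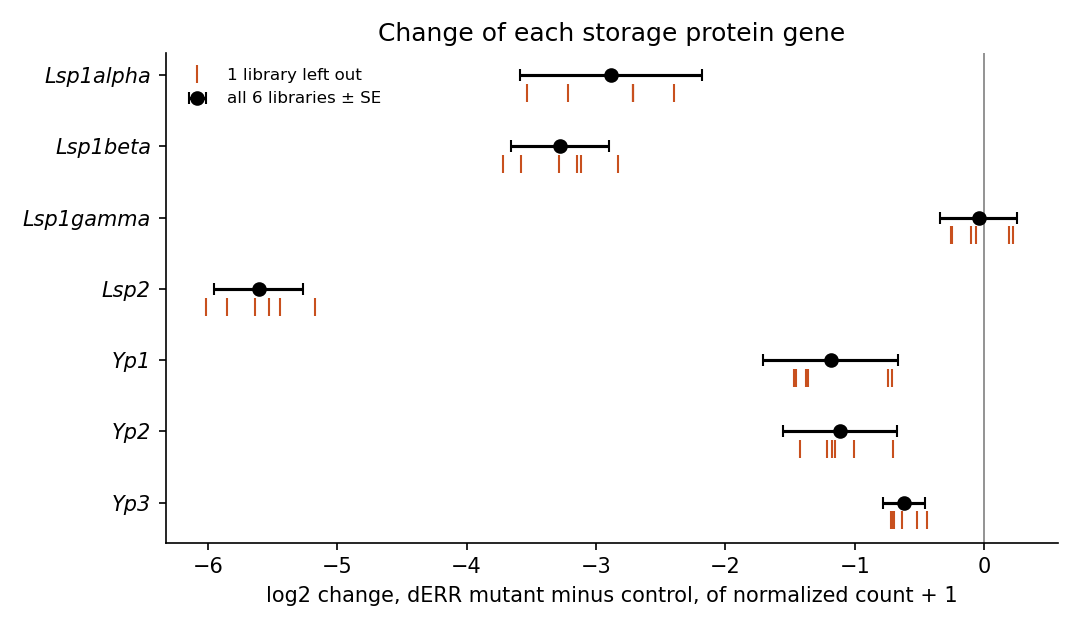
Log2 difference of normalized count plus 1, mutant minus control, for each storage protein gene. Black points with bars are the values from all 6 libraries with their SE, and orange ticks are the values with 1 library left out. Lsp2 ranged from -6.01 to -5.17 and Lsp1beta from -3.72 to -2.83 with 1 library left out, while Lsp1gamma ranged from -0.25 to 0.22.

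Levels were compared between genes per kilobase of coding length, which runs from 1260 bases for Yp3 to 2448 bases for Lsp1alpha in the reference annotation. In control libraries Lsp2 led with 821 ± 226 normalized counts per kilobase (SD, n = 3). Lsp1beta (142 ± 45.1) and Yp3 (134 ± 17.4) followed, and their libraries overlapped. Lsp1gamma (12.3 ± 4.39), Yp1 (9.90 ± 6.67), Yp2 (7.78 ± 1.16) and Lsp1alpha (4.16 ± 2.93) came last, each overlapping its neighbour in this order. The step from Yp3 to Lsp1gamma was clear of the spread, from a lowest value of 119 to a highest of 17.2.

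The order differed in the mutant libraries, where Yp3 led with 88.1 ± 17.9 normalized counts per kilobase of coding length (SD, n = 3). Its lowest library (67.6) lay above the highest library of Lsp2 (28.4). Lsp2 (8.52 to 28.4), Lsp1beta (7.15 to 25.6) and Lsp1gamma (8.16 to 15.5) overlapped each other. Yp1 and Yp2 were at 3.77 ± 2.01 and 3.49 ± 1.90, and Lsp1alpha was at 0.135 ± 0.235. A hexamerin RNA, Lsp2, thus headed the set in control males and a yolk protein RNA, Yp3, in mutant males.

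The ratio of Lsp2 to Lsp1beta was closer within each group than between groups. There were 4.57, 5.61 and 5.45 Lsp2 reads for each Lsp1beta read in control libraries 1 to 3, and 0.984, 1.06 and 1.06 in mutant libraries 1 to 3. Few reads leave the single mutant ratios uncertain, with 95% counting intervals of 0.68 to 1.42, 0.64 to 1.76 and 0.51 to 2.19. Summed over a group, the ratio was 5.15 in control (95% counting interval 4.81 to 5.52, from 5144 and 999 reads) and 1.02 in mutant libraries (0.777 to 1.33, from 114 and 112 reads). Per coding length the ratio was 5.14 to 6.31 in control and 1.11 to 1.19 in mutant libraries. Lsp2 thus made up 81.0 to 83.1% of all larval serum protein reads in control libraries and 25.4 to 40.4% in mutant libraries. The share of Yp3 among yolk protein reads was 81.0 to 91.4% in control and 90.1 to 95.6% in mutant libraries, ranges that overlap.

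**Figure D3:**
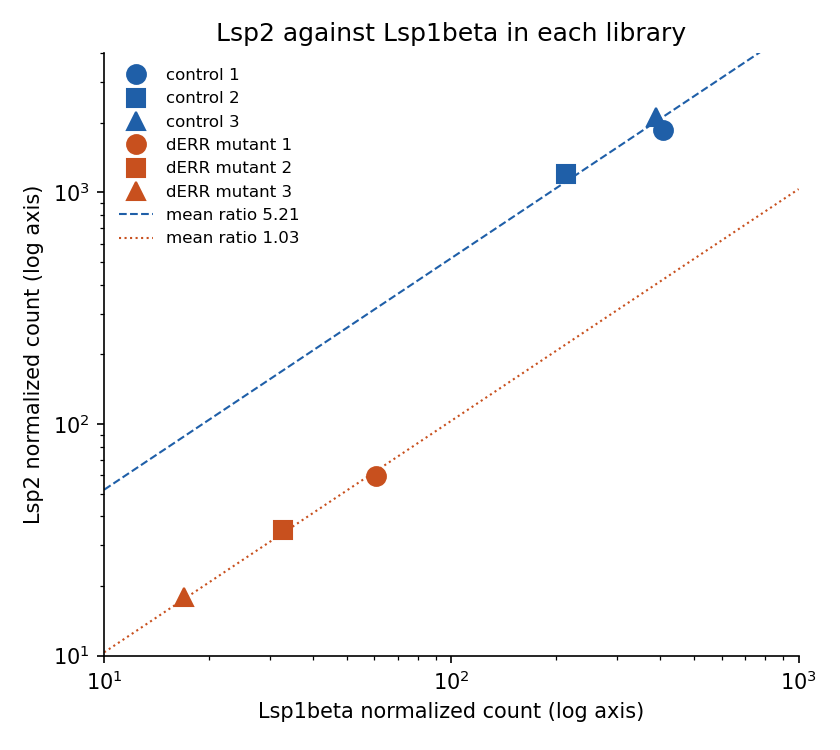
Normalized count of Lsp2 against that of Lsp1beta, both on log axes, 1 point per library. The dashed and dotted lines mark the mean ratio of Lsp2 to Lsp1beta in the control (5.21) and dERR mutant (1.03) libraries; the points of each group lie along their own line.

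The storage protein genes also varied more between libraries of a group than most genes did. The within-group SD of log2 values was 0.25 for Yp3 and up to 0.92 for Lsp1alpha, against a median of 0.13 over all genes. Of the 7 genes, 6 lay above 0.32, the value that 90% of all genes stay under. Lsp1alpha, Yp1 and Yp2 had few reads. Lsp2 (0.67) and Lsp1beta (0.73) had means of 882 and 187 normalized counts over the 6 libraries, carried by the controls. Their mutant libraries 1 to 3 held 61, 35 and 18 reads of Lsp2 and 62, 33 and 17 of Lsp1beta. The SD of normalized counts was 27.5% of the mean in control and 56.1% in mutant libraries for Lsp2, and 31.7% and 60.2% for Lsp1beta. The part of counting error in this spread was not tested. Control replicate 2 was the lowest control library for Lsp2, Lsp1beta and Lsp1alpha and the highest for Lsp1gamma. Mutant replicate 1 was the highest mutant library for Lsp2 and Lsp1beta and the lowest for Yp1, Yp2 and Yp3.

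Genes with the most similar profile were sought among 10080 other genes, by Pearson's r of log2 values over the 6 libraries. These r values mostly reflect the difference between the groups and the shared libraries, and are descriptions. For Lsp1beta the closest were the odorant-binding protein gene Obp99b (r = 0.999), alpha-Est8 (0.998) and CAHbeta (0.998), an esterase and a carbonic anhydrase gene. With Lsp1beta, 366 genes had an r of at least 0.95. Pearson's r takes no account of the size of a change. CAHbeta had 198 to 215.5 normalized counts in control and 154 to 175 in mutant libraries, a much smaller difference than that of Lsp1beta. Obp99b, which is also on the list of adult fat body genes below, had 400.3, 258 and 385 normalized counts in the control libraries. It had 124, 94.5 and 67.7 in the mutant libraries, in the same order of libraries within each group as Lsp1beta. For Lsp2 the closest were the transaminase Got2 (0.998), smp-30 (0.998) and CG9119 (0.998), and 525 genes had an r of at least 0.95. For Yp3 the closest were Ag5r (0.992), CG7458 (0.990) and the dynactin subunit Dmn (0.984), and 29 genes had an r of at least 0.95. Between members, r was 0.987 for Lsp2 with Lsp1beta, 0.904 for Yp3 with Yp2 and -0.16 for Lsp1gamma with Lsp1beta.

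Among relatives of the hexamerins, 2 of 3 measured prophenoloxidase genes were lower in the mutant. Prophenoloxidases are the hexamerins' copper-binding kin that start melanin formation. Of 5 listed relatives 3 were measured, and 2 of these fell and 0 rose, beside 9.47% lower and 4.73% higher over all genes. This list and those below were chosen with earlier results of these data known, and no set test was run. The list median was -1.03, beside 0.00 over all genes. PO45 (now PPO2) had 249, 185 and 323 normalized counts in the control and 159, 90.5 and 121 in the mutant libraries (log2 -1.03 ± 0.22, SE; adjusted p = 0.0093, limma). proPO-A1 (PPO1) had 140, 96.3 and 245 against 86.1, 13.9 and 40.8 (log2 -1.98 ± 0.52; adjusted p = 0.0276, limma). CG42640 (PPO3) had a log2 difference of 0.56 ± 0.34 and was not called (adjusted p = 0.324, limma). Neither call held in every fit. Without control replicate 1 the count was 0, with log2 differences of -1.02 for PO45 and -2.03 for proPO-A1, and the call of proPO-A1, which overlaps the gene elk, also ended with a robust variance prior and when control replicate 3 or mutant replicate 3 was left out.

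Listed genes of the lipase family, to which the yolk proteins belong, were lower in the mutant or not called. Of 23 listed genes 18 were measured, and 12 fell and 0 rose, beside 9.47% lower and 4.73% higher over all genes. The list's median log2 difference was -0.76, beside 0.00 over all genes. CG18258 had 2025, 2050 and 2031 normalized counts in the control and 803, 793 and 659 in the mutant libraries (log2 -1.44 ± 0.09, SE; adjusted p = 1.91e-06, limma). CG5162 (-1.34 ± 0.10) and CG6296 (-1.97 ± 0.21, overlapping NepYr) fell likewise, and CG14034 fell from 1936 ± 305 to 965 ± 95.4 normalized counts (SD, n = 3 each). Not all members took part: CG6295, the second most abundant, had 4994 to 5339 normalized counts in control and 5278 to 5780 in mutant libraries. With 1 library left out the number called lower was 8 to 10, with 8 when control replicate 3 or mutant replicate 3 was left out. With scaling to library totals it was 9. Of the genes called lower, sxe2, CG18641, CG6472 and CG6271 each overlap a gene with a higher mean level.

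Of 12 measured genes listed for yolk uptake and sex control, 1 fell, 1 rose and 10 were not called. Over all genes 9.47% were lower and 4.73% higher. The list median was 0.00. The male and female switch gene dsx, which encodes Doublesex, had 1252, 1248 and 1142 normalized counts in the control and 1023, 743 and 1090 in the mutant libraries (log2 -0.37 ± 0.13, SE; adjusted p = 0.0822, limma). Its call was made when libraries were scaled to ribosomal protein genes (adjusted p = 0.0203, limma) and without mutant replicate 3 (adjusted p = 0.0416, limma), and dsx overlaps the gene lds. The table has 1 value for dsx, so its male and female splice forms were not measured apart. The yolk protein receptor gene yl had 12.1 to 17.1 normalized counts in control and 8.96 to 15.7 in mutant libraries. The sex-determination gene tra rose (log2 0.53 ± 0.10; adjusted p = 0.00379, limma), and it overlaps l(3)73Ah. The GATA factor gene srp, known to act in the fat body, fell (-0.34 ± 0.09; adjusted p = 0.0241, limma), a call that ended with scaling to library totals and when control 1, control 3, mutant 2 or mutant 3 was left out.

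Ecdysone and juvenile hormone control both kinds of storage protein gene in the fly. Of 21 measured genes of these pathways 2 fell, 2 rose and 17 were not called, beside 9.47% lower and 4.73% higher over all genes, with a median of -0.09. The share lower was close to that of all genes. The juvenile hormone epoxide hydrolases Jheh1 (-0.66 ± 0.10; adjusted p = 0.000803, limma) and Jheh2 (-0.52 ± 0.08; adjusted p = 0.00129, limma), which break the hormone down, fell. Kr-h1, a transcription factor induced by juvenile hormone, rose from 728 ± 94.8 to 1134 ± 164 normalized counts (SD, n = 3 each; adjusted p = 0.00401, limma). The juvenile hormone receptor gene gce rose by 0.36 ± 0.07 (adjusted p = 0.00511, limma), a call lost with scaling to ribosomal protein genes. Scaled that way, 6 genes were called lower and 1 higher.

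**Figure D4:**
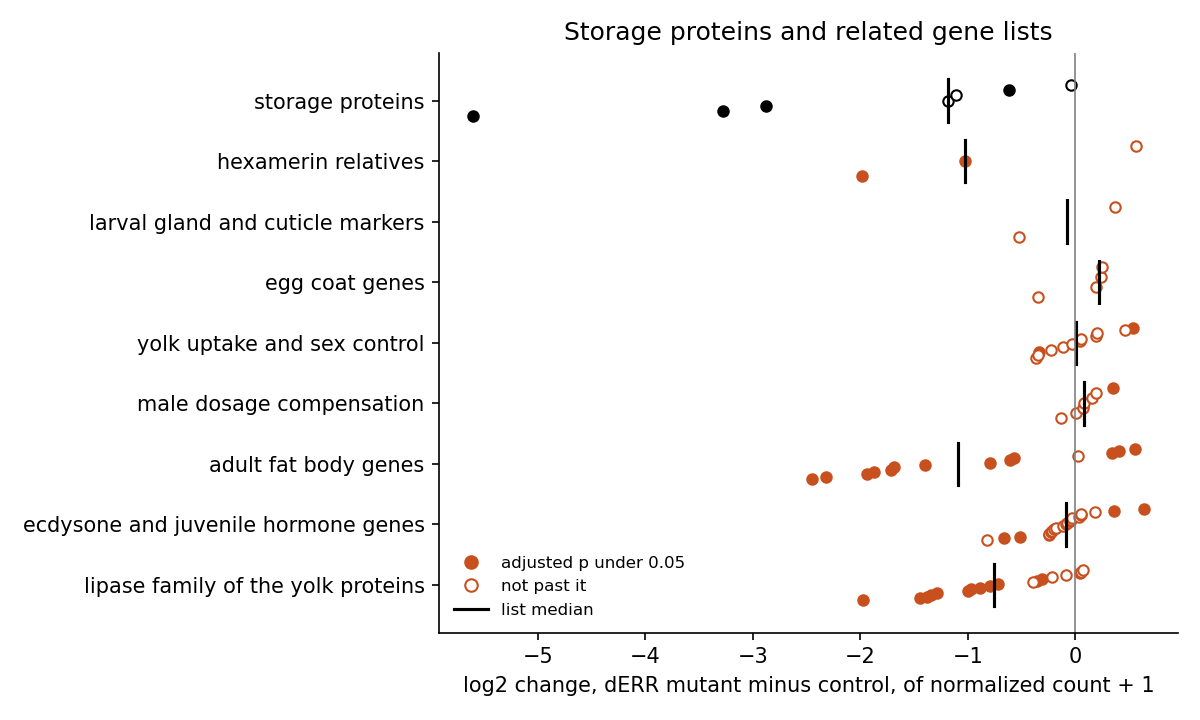
Log2 difference of normalized count plus 1, mutant minus control, for the storage protein genes and the 8 related lists, 1 point per gene. Filled points passed an adjusted p of 0.05 in limma over all genes, open points did not, and black lines are list medians. Most adult fat body genes lie left of 0, as do Lsp2, Lsp1beta and Lsp1alpha, while the egg coat, larval gland and dosage compensation genes lie on both sides of 0, between -0.52 and 0.37.

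Other products of the adult fat body, a known adult site of Lsp2 activity and, in females, of yolk protein synthesis, moved in the same libraries. Of 14 listed genes, all measured, 10 fell and 3 rose, beside 9.47% lower and 4.73% higher over all genes. The list was chosen with earlier results of these data known, so these counts are a description. The median log2 difference of the list was -1.10, beside 0.00 over all genes. The summed level was 175894 to 214403 normalized counts in control and 71649 to 96953 in mutant libraries, and no member was at 0. The fall of this sum is in large part that of Adh, with means of 81951.5 in control and 15579 in mutant libraries. The lipophorin precursor Rfabg (apolpp) fell from 35968 ± 1332 to 9514 ± 1793 normalized counts (SD, n = 3 each; log2 -1.93 ± 0.12 SE; adjusted p = 3.08e-06, limma). Adh fell by 2.45 ± 0.19 on the log2 scale (adjusted p = 1.24e-05, limma), though its reads cannot be told from those of the overlapping Adhr. The secreted peptide gene fit fell by 2.32 ± 0.21 (adjusted p = 3.57e-05, limma) and overlaps CG31465, and the lipid droplet gene Lsd-1 fell by 1.69 ± 0.15 (adjusted p = 2.91e-05, limma).

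The fat body list also held genes that went the other way. The triglyceride lipase bmm rose by 0.55 ± 0.10, the lipocalin NLaz by 0.34 ± 0.08 and takeout (to) by 0.41 ± 0.11 on the log2 scale. The calls of NLaz and to ended with scaling to ribosomal protein genes. That of NLaz also ended when control 3 or mutant 1 was left out, and that of to when control 2, control 3, mutant 1 or mutant 3 was. The fatty acid synthase CG3523 (FASN1) had means of 34894 ± 5609 and 35409 ± 4552 normalized counts (SD, n = 3 each). The part of this list's shift in the values of the storage protein genes was not tested.

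Markers of larval tissue outside the fat body and of females gave no called gene. Of 14 larval gland and cuticle genes 2 were measured, and 0 passed in limma, with 0 at an unadjusted p under 0.05. Lcp1, a larval cuticle gene, had 66.5 to 80.6 normalized counts in control and 23.5 to 81.5 in mutant libraries, and the glue gene Sgs1 had 5.04 to 20.3 and 13.9 to 21.9. Of the 4 measured egg coat genes 0 passed and 0 had an unadjusted p under 0.05. Cp15 had 74.1 to 82.2 in control and 74.4 to 105 in mutant libraries, and Cp18 had 10.7 to 20.1 and 13.9 to 20.6. Cp19 had 1 read in all, in control replicate 1. The part of egg coat tissue in the yolk protein values was not tested. Of the 7 dosage compensation genes roX2 rose (0.35 ± 0.10; adjusted p = 0.0331, limma) and 6 were not called; the call of roX2 ended with scaling to ribosomal protein genes and without any 1 library other than control replicate 1.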

How the data were processed

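RNA was sequenced from whole males in 2 groups of 3 libraries. Per the labels' protocols, libraries were poly(A)-selected and stranded. The submitters' processing notes name Novoalign, DESeq2 and dm3; settings, counting tool and annotation are not stated there. The authors deposited a signal per gene and library, normalized counts, and per the file headers their own comparison (log2 fold changes, a Wald score, p-values). Each value was a whole multiple of 1 step per library (tolerance 1e-06), which gave reads. The step was close to 1 in 3 libraries, and the recovered reads were used only for totals, low values and counting intervals. No count model was fitted; limma 3.58.1 (R 4.3.3, trended variance) was fitted to log2(normalized count + 1) over all 13035 genes, without a filter, with Benjamini-Hochberg adjustment. The fit was tested on simulated data. Coding lengths came from the Ensembl annotation of another build, of which no coordinates were used. The members and lists were chosen with earlier results of these data known. Genes named are the members, up to 4 per direction with the smallest adjusted p from each of 8 lists (81 of 114 genes measured) or the 2 most abundant where 0 passed, ERR, dsx and yl, and the 3 genes most like each member with a mean of at least 50; Fbp1 was not analysed here, and CG42640, CG6295, CG3523, roX1 and Cp19 were added after their values were seen. Python 3.11.15, scipy 1.17.1 and matplotlib 3.10.9 were used for intervals and figures. Intervals cover counting error only.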

Additional observations from a re-analysis of the deposited data

How the results depend on the processing

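Each value was recomputed under 13 alternatives: 2 other pseudocounts, a filter of a mean of 10, 3 other scalings, a robust variance prior and each library left out. No paired analysis was possible because the labels give no replicate numbers shared by the groups. Scaling to the 92 ribosomal protein genes moved the median log2 difference of all genes to -0.16, from 0.00. It gave 2069 genes lower and 206 higher, so that 9.06% of calls were higher, against 33.3% as reported and 56.6% (1293 higher) with scaling to library totals. Ribosomal scaling also gave 3 yolk uptake and sex control genes lower, 1 dosage compensation gene lower and 0 higher, 1 fat body gene higher, and 6 hormone genes lower and 1 higher. Scaling to library totals gave 0 yolk uptake and sex control genes lower and 2 dosage compensation genes higher. The robust prior gave 1 hexamerin relative and 2 yolk uptake and sex control genes lower. With a pseudocount of 10 the difference of Lsp1alpha was -0.90 and that of Yp2 -0.49; the size of both depends on the pseudocount because they rest on few reads. With the filter, Lsp1alpha, Yp1 and Yp2 gave no value. With 1 library left out, 926 to 1139 genes were lower and 330 (without control replicate 3) to 563 higher, with 382 without mutant replicate 3. The ranges were 2 to 4 storage protein genes lower, 0 to 2 hexamerin relatives lower, 0 to 2 yolk uptake and sex control genes lower, 0 to 1 dosage compensation genes higher and 1 to 3 fat body genes higher, the latter 1 without control replicate 3 or mutant replicate 1. The difference of Sgs1, which was not called, was 0.37, and ran from -0.22 (without control replicate 3) to 0.69 with 1 library left out. The cause of the other moves was not tested. Lsp1alpha, Yp1 and Yp2 had at most 23 reads in any library, which limits the precision of their values.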
